A study of Mus musculus with 3 samples.

Results

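Squamous keratinizing epithelial cells of the mouse nasal mucosa are described here from single-cell RNA counts. The members were selected on measured counts of 7 genes: a cell was a member when it carried at least 3 transcript molecules (UMIs, unique molecular identifiers) of Krtdap, a protein made by differentiating keratinocytes, and at least 3 of Krt1, Krt10, Sbsn, Krt13 or Krt4, with none of the leukocyte gene Ptprc. The rule found 87 members among 32376 cells that had at least 500 UMIs, at least 200 genes and at most 20% mitochondrial UMIs. Of them 80 were in mice given papain with lonidamine, 7 in mice given papain and 0 in mice given PBS. Because the rule reads these genes, their high levels in the members are a description and not a finding.

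The study gave C57BL/6J mice 20 µg of papain, a plant protease, through the nose as a model of eosinophilic chronic sinusitis. The lonidamine group received the same papain plus 10 mg/kg lonidamine (LND), a compound that blocks hexokinase and the carriers of pyruvate and lactate, by the intragastric route. The papain group received papain with intragastric PBS, and the control group received intranasal PBS. Each group held equal numbers of males and females per the design text, its tissue was pooled, and 1 10x Genomics 3′ library was made per group after digestion with collagenases and Dispase. A group is therefore 1 sample, no test between groups was possible, and every interval in square brackets is a 95% interval for counting error only.

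Squamous epithelium is a layered tissue. Its basal cells carry Krt5 and Krt14, sit on the basement membrane through hemidesmosomes, and divide. Their daughters move upward, lose those genes and switch to suprabasal keratins, Krt1 and Krt10 in skin and Krt13 and Krt4 in moist mucosa. In the upper layers of skin the cells load a cornified envelope of cross-linked proteins and a lipid barrier, and proteases with their inhibitors set the rate of shedding. In the nose such epithelium lines the vestibule, while most of the cavity is lined by respiratory or olfactory epithelium.

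The lonidamine, papain and PBS libraries held 12149, 10712 and 9515 kept cells, with a median of 5892, 6612 and 7416 UMIs per cell. The 18S ribosomal transcript Rn18s-rs5 took 3.50%, 3.65% and 0.886% of their UMIs. The papain library carries the library name Fibroblast in its labels and was used under its treatment label. Between 22 and 36 kept cell barcodes occurred in each pair of libraries, and 2 of the 87 members had such a barcode. The doublet caller Scrublet marked no member, and 262, 188 and 137 cells of the 3 libraries.

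Members were 0.658% [0.522, 0.819] of the cells of the lonidamine library and 0.0653% [0.0263, 0.135] of the papain library. In the PBS library they were 0 of 9515 cells, or 0% [0, 0.0388]. A floor of 3 cells there is a share of 0.0315%. The share in the lonidamine library was 10.1-fold [4.67, 25.9] that in the papain library. It was 20.9-fold the share at that floor in the PBS library. The fold between lonidamine and papain was 10.3 when the share was taken among members plus the Krt5 cells that lacked Krtdap. The raw UMIs of Krtdap, the gene of the rule, restate this gap and give no separate support for it. Krtdap had 7536 UMIs in the lonidamine library, 380 in the papain library and 6 in the PBS library, and the members held 91.4% and 85.5% of those in the lonidamine and papain libraries. Olfactory neurons, taken as cells that should lack these genes, were chosen without Krtdap and so give no background for it. Krt10 had a UMI in 17.5%, 21.2% and 17.8% of olfactory neurons in the lonidamine, papain and PBS libraries.

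The members of the lonidamine library came almost wholly from female cells. Of the 80 members, 75 had UMIs of Xist, which is transcribed from the inactive X chromosome, and none from the Y chromosome, 4 had both, 1 had neither, and 0 had Y-linked UMIs alone. Among members assigned to 1 sex, 0 of 75 were male (0% [0, 4.80]). The male share was 16.7% of all assigned cells in that library and 9.03% of its Krt5 cells without Krtdap. In the papain library 4 members were female and 3 male, beside a male share of 26.6% over all its cells. Within female cells the squamous share was 0.946% under lonidamine and 0.0683% under papain, and within male cells it was 0 of 1592 and 0.141%. The number of mice behind the members is not known, and the part that the sex of the sampled cells has in the difference between libraries was not tested.

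**Figure D1:**
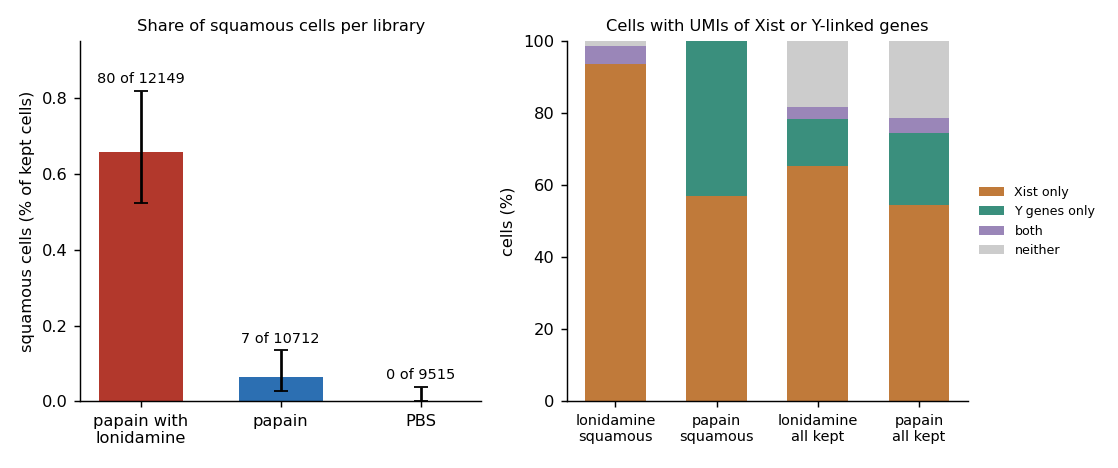
Left, squamous cells as a percentage of kept cells in each library, with bars as shares and error lines as 95% exact binomial intervals; the lonidamine library stands at 0.658%, the papain library at 0.0653% and the PBS library at 0. Right, the percentage of cells with UMIs of Xist only, of Y-linked genes only, of both or of neither; no squamous cell of the lonidamine library had Y-linked UMIs only, while 3 of 7 in the papain library did.

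Apart from the genes of the rule, the members carried a set of keratinocyte genes at levels far above those of the other kept cells. The 20 leading genes were ranked by the lower of their log2 ratios in the lonidamine and papain libraries. In these comparisons 8.22% of genes were at least 2-fold higher and 38.9% lower in members of the lonidamine library, and 35.3% higher and 20.4% lower in the 7 members of the papain library. Nothing is read from the count of leading genes because the rule set the contrast. Calm4, a calcium-binding protein of the epidermis, stood at 5650 CPM, counts scaled to the total of the cells summed, in lonidamine members and 8.32 CPM in the other cells of that library. In the papain library it stood at 6299 CPM in members and 0.316 CPM in the others. Lgals7, the keratinocyte lectin galectin-7, had 8932 CPM in lonidamine members and 39.0 CPM in other cells. Spink5, the protease inhibitor whose loss causes Netherton syndrome, stood at 2347 CPM in lonidamine members and 11.2 CPM in other cells, and the desmosomal cadherin Dsg3 at 328 and 2.88 CPM. Further leading genes were Gm94, 2300002M23Rik, Sptssb, Flg, Lypd3, Cysrt1, Cnfn, Fam25c, Klk13, Rbp2, Calml3, Sprr1a and Klk14. Flg rested on 4 lonidamine members, 1 of which held 89.1% of its UMIs, and 2300002M23Rik took 48.9% of its UMIs from 1 cell.

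Markers of other cell types, basal epithelial ones apart, were low in most members and high in a few. The 6 basal epithelial markers, Krt5 among them, summed to at least 10 UMIs in 77 of 80 lonidamine members, at a median of 8532 CPM per cell. In the lonidamine members all 4 melanocyte markers were at 0, as were Krt71 and Krt25 of the hair follicle, Scd3, Elovl3 and Awat2 of sebaceous cells, Cd207 of Langerhans cells, and Cd3e, Nkg7 and Cd79a of lymphocytes. Secretory and goblet markers summed to 1964 UMIs with Scgb1a1 at 0, and serous gland markers to 1650 with Lyz1, Dcpp1 and Bpifb9a at 0. Hair follicle markers summed to 178, sebaceous markers to 279 and Langerhans markers to 249. Hair follicle markers stood at 1073 CPM in papain members and 9.16 CPM in other papain cells, 71.4% from 1 member. In lonidamine members they stood at 130 CPM, 50.6% from 1 cell, and in other cells of that library at 10.6 CPM. Sebaceous markers, at 203 and 452 CPM, and Langerhans markers, at 181 and 841 CPM, were lower in lonidamine members. A single cell held 77.7% of the 247 sustentacular UMIs, a single cell 65.0% of the 266 olfactory neuron UMIs and a single cell 97.0% of the 1044 red cell UMIs. At least 10 UMIs of an olfactory neuron, sustentacular, secretory, serous gland, ciliated, ionocyte, fibroblast, endothelial, pericyte or red cell set were present in 17 of 80 lonidamine members and 3 of 7 papain members. The part of these cells in the results was not tested, and values without them are given where they change. Other sets were not counted, among them neutrophil, Langerhans, sebaceous and hair follicle markers, with at least 10 UMIs in 5, 6, 7 and 2 lonidamine members. All 5 squamous markers, Krtdap, Krt1, Krt10, Sbsn and Krt13, were detected in the members of both libraries. They belong to the rule, so their detection is no support for the label. Their sum ran from a median of 29682 CPM per cell in lonidamine members with little Krt5 to 1519 CPM in those with Krt5. The basal epithelial markers, Krt5 itself among them, had medians of 3051 and 14357 CPM in the same cells. The label therefore describes the second part less closely than the first.

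Promoter sequence was at hand for 15 of the 20 leading genes (RefSeq, GRCm38.p6, 250 bases before to 50 bases after the start of the gene). The core motif of the AP-1 factors, TGANTCA, which reads the same on both strands, was found in 6 of the 15 (40%): Krtdap, Sbsn, Flg, Cysrt1, Fam25c and Sprr1a. It was found in 7.81% of all 32851 promoters of that length. The other motifs searched, on both strands, were the TATA box TATAAA, in 5 of the 15 (33.3%) and 13.6% of all promoters, and CCACCC, in 10 of the 15 (66.7%) and 31.5% of all. AP-1 is the dimer of Fos and Jun proteins, long studied on keratinocyte genes. The promoters of Krtdap, Sbsn and Sprr1a are shown because their genes define the cells or lead the upper-layer group below, with the AP-1 core in capitals. The match is a description of letters and not evidence of binding. Krtdap lies at chr7:30787655-30787954 on the plus strand, with the match 81 bases before the start. Sbsn lies nearby at chr7:30751221-30751520 on the plus strand, with matches 119 and 6 bases before the start. Sprr1a lies at chr3:92485832-92486131 on the minus strand, with matches 146 and 116 bases before the start.
Krtdap: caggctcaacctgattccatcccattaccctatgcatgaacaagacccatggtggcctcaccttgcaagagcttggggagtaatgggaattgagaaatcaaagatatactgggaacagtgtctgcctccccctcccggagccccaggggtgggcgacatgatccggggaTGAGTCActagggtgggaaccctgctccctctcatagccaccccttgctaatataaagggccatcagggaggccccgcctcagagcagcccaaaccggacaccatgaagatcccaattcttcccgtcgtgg
Sbsn: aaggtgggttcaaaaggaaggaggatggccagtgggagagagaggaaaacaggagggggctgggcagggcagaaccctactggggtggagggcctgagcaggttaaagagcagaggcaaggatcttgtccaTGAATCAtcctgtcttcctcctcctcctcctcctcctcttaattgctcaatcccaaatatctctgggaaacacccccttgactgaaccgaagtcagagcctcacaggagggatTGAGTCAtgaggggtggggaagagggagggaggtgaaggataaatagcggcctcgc
Sprr1a: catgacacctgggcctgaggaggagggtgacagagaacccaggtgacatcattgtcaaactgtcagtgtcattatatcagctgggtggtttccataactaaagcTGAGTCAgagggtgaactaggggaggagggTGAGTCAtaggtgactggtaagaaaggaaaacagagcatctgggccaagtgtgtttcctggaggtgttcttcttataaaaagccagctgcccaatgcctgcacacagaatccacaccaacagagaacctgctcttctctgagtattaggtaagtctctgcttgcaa

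Skin-type and mucosa-type keratins divided the members unequally between the libraries. Krt1 and Krt10 together exceeded Krt13 and Krt4 in 54 of 80 lonidamine members (67.5% [56.1, 77.6]) and in 1 of 7 papain members (14.3% [0.361, 57.9]). The mucosal pair was ahead in 24 of 80 and 6 of 7, and 2 lonidamine members were equal. Of those 24, 22 had at least 3 Krt5 UMIs, and 1 was placed there by 3 Krt4 UMIs alone. A Krt4 UMI was also found in 22.0% of the lonidamine Krt5 cells without Krtdap. These genes belong to the rule, and the division is a range and not a type. The intervals of the share led by Krt1 and Krt10 overlap between the libraries. Those of the share led by Krt13 and Krt4, [20.3, 41.3] under lonidamine and [42.1, 99.6] under papain, do not overlap. All of them cover counting error only. As a share of all kept cells, the members led by Krt1 and Krt10 stood at 0.444% under lonidamine and 0.00934% under papain, and those led by Krt13 and Krt4 at 0.198% and 0.0560%, 3.53-fold [1.40, 10.5] apart.

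**Figure D2:**
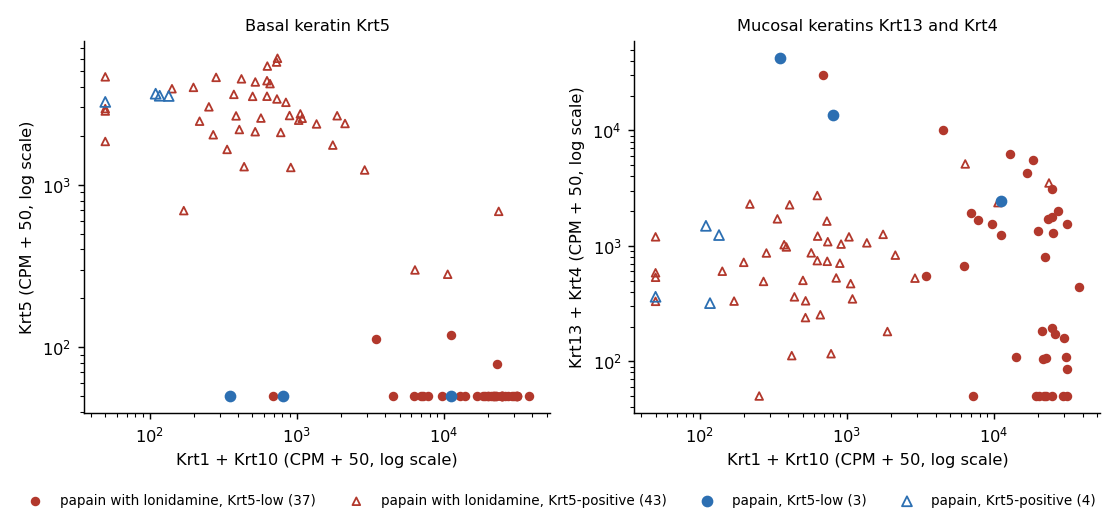
Each point is 1 squamous cell, with Krt1 plus Krt10 on the x axis and Krt5 (left) or Krt13 plus Krt4 (right) on the y axis, all as CPM of the cell plus 50 on log scales. Filled circles are cells with fewer than 3 Krt5 UMIs and open triangles the others, red for the lonidamine and blue for the papain library; Krt5 is at the bottom of the scale in most cells that are high in Krt1 and Krt10.

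Krt5 was present or nearly absent, with few members between. In the lonidamine library 34 members had no Krt5 UMI, 3 had 1 or 2, 2 had 3 to 9 and 41 had 10 or more. In the papain library 3 had none and 4 had 10 or more. Members with fewer than 3 UMIs are called Krt5-low and the others Krt5-positive, a division chosen after these values were seen, so what follows is a description of the 2 ends of the range. Krt5-low cells were 37 of 80 lonidamine members (46.2% [35.0, 57.8]) and 3 of 7 papain members (42.9% [9.90, 81.6]). Both parts were scarcer under papain: the Krt5-low members were 10.9-fold [3.44, 55.1] and the Krt5-positive members 9.48-fold [3.44, 36.4] more frequent among kept cells under lonidamine than under papain. Krt5-low members were also larger in RNA content, with a median of 21408 UMIs against 11692 in Krt5-positive members of the lonidamine library. Of the 37 Krt5-low lonidamine members 35 were led by Krt1 and Krt10, as were 19 of the 43 Krt5-positive ones.

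Counted cell by cell in the lonidamine library, the epidermal keratins marked the Krt5-low end. Krt1 had a lowest, median and highest count of 0, 217 and 514 UMIs in Krt5-low members and 0, 5 and 368 in Krt5-positive members. Krt10 had 6, 222 and 740 UMIs in Krt5-low and 0, 0 and 519 in Krt5-positive members. The groups overlapped for both genes, and 3 Krt5-positive cells with high levels stand out in the plot of keratins by cell. The basal keratin Krt14 ran the other way, with 0, 1 and 55 UMIs in Krt5-low and 6, 38 and 102 in Krt5-positive members. After thinning every cell to 2000 UMIs, which left out 1 Krt5-low cell, 33 of 36 Krt5-low cells (91.7%) and 9 of 43 Krt5-positive cells (20.9%) had a Krt10 UMI. Unthinned, 100% and 48.8% had one. Across the 80 cells the Spearman correlation with the CPM of Krt1 plus Krt10 was -0.81 for Krt5, -0.68 for Krt14, -0.76 for Col17a1, 0.82 for Calm4, 0.77 for Fabp5 and 0.74 for Klk14. These cells share 1 library, and the UMIs per cell themselves had a correlation of 0.52, so the coefficients are given as a description only.

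**Figure D3:**
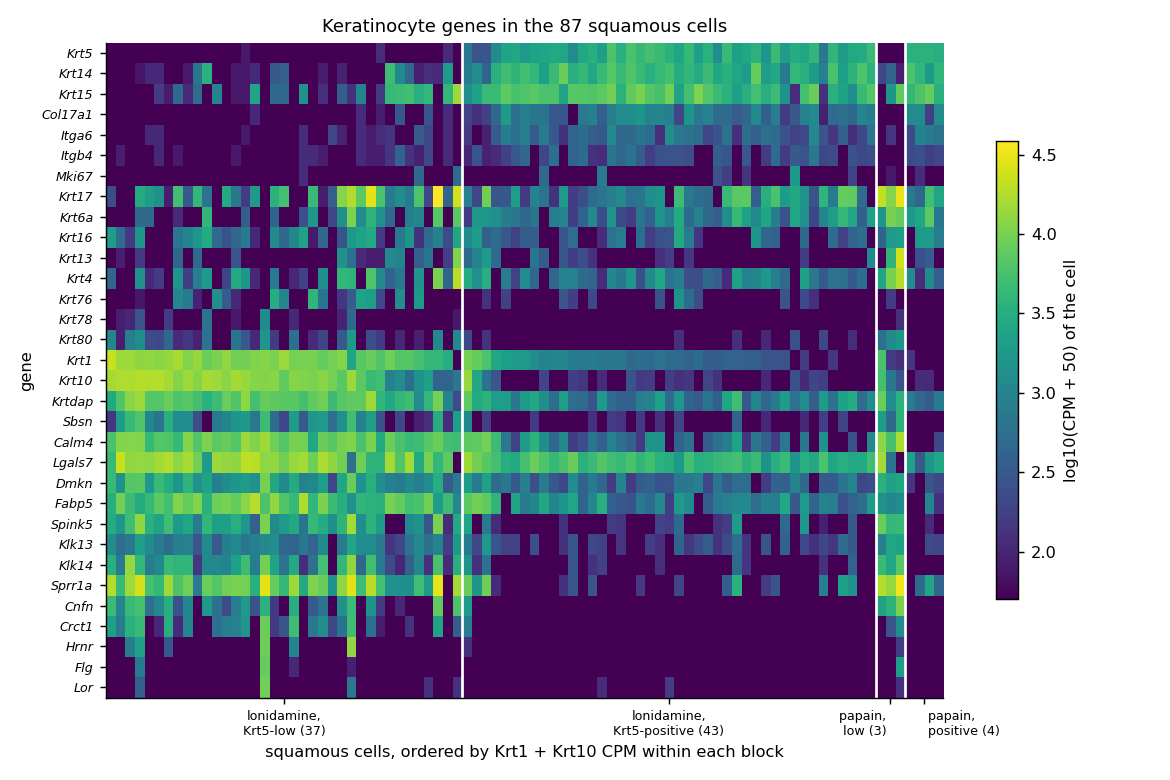
Levels of 32 keratinocyte genes in the 87 members, 1 column per cell, as log10 of the cell's CPM plus 50. White lines part the Krt5-low and Krt5-positive members of the lonidamine library (37 and 43) and those of the papain library (3 and 4), and within each block cells run from high to low Krt1 plus Krt10; basal genes at the top and envelope genes at the bottom occupy opposite blocks in both libraries.

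Sums over the cells of each part were then compared within the lonidamine library, over 6983 genes with at least 20 UMIs. Of these, 738 (10.6%) were at least 2-fold higher in Krt5-low members and 1144 (16.4%) at least 2-fold lower, and the median gene stood at a log2 ratio of -0.18. With scaling by the median of ratios that median was -0.01, and 51.6% of the genes past 2-fold were higher, against 39.2% with CPM. All list counts that follow are members at least 2-fold higher or lower out of those with at least 20 UMIs, read against these percentages. At least 10 UMIs of another type's markers, among the types counted above, were carried by 11 of the 37 Krt5-low and 6 of the 43 Krt5-positive members. Without them both counts of genes past 2-fold stayed within 1.5 times those given.

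Genes that hold basal cells to the basement membrane were lower in Krt5-low members. All 11 hemidesmosome and integrin genes were at least 2-fold lower (median log2 ratio -2.88). Col17a1, the transmembrane collagen of hemidesmosomes, had a UMI in 6 of 37 Krt5-low members and in 42 of 43 Krt5-positive ones, at 14.3 and 556 CPM (-5.22 [-6.25, -4.45]). Lamb3, a chain of laminin-332, stood at 1.19 and 137 CPM, and Dst, which ties keratins to hemidesmosomes, at 7.16 and 283 CPM. The integrin partners Itga6 and Itgb4 had log2 ratios of -3.81 and -2.77, and Itga6 was found in 13 of 37 Krt5-low and 42 of 43 Krt5-positive members. Krt14 stood at 181 and 3212 CPM (-4.14). Krt15 was at 1318 and 4441 CPM, but 49.7% of its UMIs in Krt5-low members came from 1 cell.

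Growth-related genes were also lower. All 8 cell cycle genes tested were at least 2-fold lower in Krt5-low members (median -2.46), among them the replication factor Mcm3 at 3.58 and 76.8 CPM and the proliferation marker Mki67 at 35.8 and 88.0 CPM. Mki67 was found in 3 of 37 Krt5-low and 7 of 43 Krt5-positive members. After thinning Mki67 was found in 2 of 36 and 4 of 43, too few for an order to be read. Top2a was found in 6 of 37 Krt5-low and 7 of 43 Krt5-positive members. A single Krt5-positive member held 25 UMIs of Mki67 and 20 of Top2a, and the highest Krt5-low member held 18 of Mki67. How far a few cells carry the sums of this list was not tested. The cyclin Ccnd2 stood at 62.0 and 554 CPM. The ligand gene Wnt10a had 0 UMIs in Krt5-low and 57 in Krt5-positive members. The growth factor binding protein Igfbp3 stood at 66.8 and 1189 CPM. Trp63, the master factor of squamous basal cells, was at 106 and 214 CPM (-1.01).

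The cornified envelope genes formed the opposite pole, with all 20 tested at least 2-fold higher in Krt5-low members (median 3.62). Krtdap and Sbsn of the gate are among them. Involucrin, Ivl, an early envelope scaffold, stood at 161 CPM in Krt5-low and 1.87 CPM in Krt5-positive members. It had no UMI in 22 of the 37 Krt5-low members. Cornifelin, Cnfn, was found in 27 of 37 Krt5-low members and in 1 of 43 Krt5-positive ones, at 1721 and 122 CPM. Crct1 stood at 1491 and 54.3 CPM and Cysrt1 at 328 and 20.6 CPM. The scaffold plakins Ppl and Evpl had log2 ratios of 2.30 and 1.65. The small proline-rich Sprr1a, cross-linked into the envelope, had a median of 155 UMIs per cell, highest 1011, in Krt5-low members and a median of 0, highest 328, in Krt5-positive ones.

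The last steps of cornification were seen in very few cells. Loricrin, Lor, the main envelope protein of mouse epidermis, had UMIs in 7 lonidamine members, and 1 of them held 296 of the 331. That cell also held 253 of the 284 UMIs of filaggrin, Flg, and 277 UMIs of hornerin, Hrnr, beside 361 of Krt1 and 348 of Krt10. Hrnr was found in 7 members. The members with 1 Lor UMI are within background, since 6.47% of olfactory neurons of that library had a Lor UMI. Most Krt5-low members had Krt1, Krt10 and Sprr1a without detectable Lor or Flg at a median of 21408 UMIs.

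Enzymes and carriers of the lipid barrier were higher in Krt5-low members without exception among the 22 tested (median 2.27). Elovl4, which extends the very long fatty acids of skin ceramides, stood at 293 CPM in Krt5-low and 11.2 CPM in Krt5-positive members. Ceramide synthase Cers3 was at 90.6 and 9.36 CPM, the alkaline ceramidase Acer1 at 147 and 7.49 CPM and the lipid transporter Abca12 had a log2 ratio of 2.36. The lipoxygenases Alox12b and Aloxe3 had log2 ratios of 3.24 and 3.91, and Ephx3, an epoxide hydrolase of the same route, stood at 88.2 and 1.87 CPM. The fatty acid carrier Fabp5 was abundant in both parts, at 6747 and 2013 CPM. Sterol synthesis genes were higher in 9 of 18 and lower in none (median 0.90), with Fdps at 205 and 52.4 CPM and Mvk at a log2 ratio of 2.12, while Hmgcs1 stood at 0.25.

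Proteases and their inhibitors were both higher. Of 21 transglutaminase and protease genes 14 were at least 2-fold higher and none lower (median 1.40). The kallikrein Klk14, which cleaves desmosomes during shedding, stood at 3134 CPM in Krt5-low and 170 CPM in Krt5-positive members (4.19 [3.90, 4.52]). Tgm1, the envelope cross-linking transglutaminase, stood at 198 and 46.8 CPM, and the retroviral-like protease Asprv1 had a log2 ratio of 5.42. Of 8 protease inhibitors 7 were higher (median 2.80), among them Spink5 at 3613 and 358 CPM, Serpinb3a at 544 and 73.1 CPM and Serpinb2 at 978 and 144 CPM. Serpinb3a has near-identical neighbours, and how reads were split among them is not known.

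Junction genes changed by member. Of 10 desmosome genes 6 were at least 2-fold higher in Krt5-low members and none lower (median 1.15). The cadherins of upper layers, Dsg1a and Dsg1b, stood at 162 and 24.4 CPM and at 162 and 3.75 CPM, and they too are near-identical copies. Desmoplakin, Dsp, stood at 2923 and 1174 CPM. The cadherins of lower layers, Dsg3 and Dsc3, had ratios of 0.26 and 0.58. Of 13 tight and gap junction genes 6 were higher and none lower (median 0.93).

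Regulators and signals were mixed. Of 8 Notch pathway genes 3 were higher in Krt5-low members and 2 lower (median -0.46), with the ligand Jag2 at 9.54 and 109 CPM and the receptors Notch1 at -1.03, Notch2 at 1.08 and Notch3 at 1.24. Of 12 S100 and annexin genes 5 were higher and 2 lower (median 0.34), with S100a6 at 426 and 3667 CPM and S100a9 at 192 and 16.9 CPM. Of 21 differentiation factors 5 were higher and 3 lower (median 0.33). Hopx, a homeodomain protein of upper layers, stood at 667 CPM in Krt5-low and 43.1 CPM in Krt5-positive members, Grhl1 and Grhl3 had ratios of 2.37 and 2.20 and Zfp750 1.27. Klf4 stood at 0.53 and Ovol1 at 0.33. Of 7 EGF family genes 3 were higher, and the ligand amphiregulin, Areg, stood at 253 and 7.49 CPM and was found in 26 of 37 and 3 of 43 members. Of 6 alarmin and IL-1 family genes 4 were higher (median 2.75), including the alarmin Il33 at 122 and 7.49 CPM, 44.1% of it from 1 cell. Without the cells that carried markers of another type the median of that list was -0.02.

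Genes of energy metabolism differed less. Of 22 glycolysis genes and lonidamine targets 3 were at least 2-fold lower in Krt5-low members and none higher (median -0.41). They were Slc16a1, the lactate and pyruvate carrier MCT1, at 11.9 and 78.7 CPM, the glucose carrier Slc2a1 at 37.0 and 139 CPM, and Pfkp at -1.09. The hexokinases Hk1 and Hk2 had ratios of 0.13 and -0.14 and the pyruvate carrier subunits Mpc1 and Mpc2 0.56 and 0.06. Oxidative phosphorylation had 1 of 18 higher (median -0.07), and 20 ribosomal protein genes none in either direction (median -0.36). The dissociation response list, genes switched on by tissue digestion, had 1 of 18 higher (median -0.25).

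**Figure D4:**
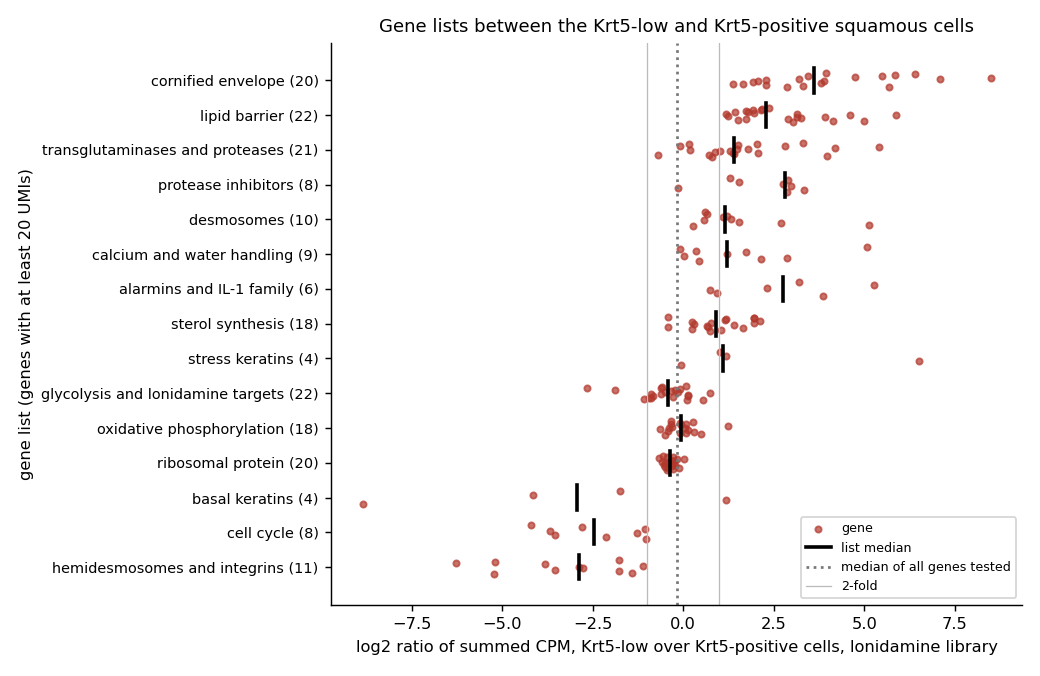
Log2 ratios of summed CPM, Krt5-low over Krt5-positive members of the lonidamine library, for the genes of 15 lists with at least 20 UMIs (points, number in brackets), with list medians as black bars. The dotted line is the median of all 6983 genes tested and grey lines mark 2-fold; envelope and lipid barrier genes all lie right of 2-fold, and cell cycle, hemidesmosome and integrin genes all left of it.

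The papain members were divided in the same way. The genes used for this were the 25 highest and 25 lowest of the lonidamine split among 387 and 368 that had enough UMIs, were spread over enough cells and drew at most 20% from 1 cell. Of the 25 highest, 23 had a UMI in a papain member, and all 23 were higher in the 3 Krt5-low than in the 4 Krt5-positive papain members. Krt10 and Sbsn of the gate are among them. All 24 of the lowest were lower, leaving out Krt5, which made the division. Over the 1135 genes with at least 20 UMIs there, 49.8% had a ratio above 0 and 50.2% below. Of those genes 25.1% were at least 2-fold higher and 20.5% lower. The genes taken from the lonidamine split needed only 1 papain UMI, so these percentages are not a like background. Where 1 part had 0 UMIs, a single UMI in the other set the sign, as for Cldn17 with 1 UMI. The signs are a description of 3 and 4 cells. Klk14 stood at 4366 CPM in Krt5-low and 0 in Krt5-positive papain members, Cnfn at 5491 and 0, Krt14 at 210 and 3704 and Col17a1 at 0 and 873 CPM.

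Krt5-positive members also differed from the other Krt5 cells of their own library. They were set against 1837 cells with at least 3 Krt5 UMIs and no Krtdap or Ptprc, called the basal set. This set is mixed. At least 10 UMIs of secretory and goblet markers were carried by 861 of its cells, and by 3 of the 43 Krt5-positive members. For serous gland markers these counts were 130 and 2, and for fibroblast markers 152 and 2. The part of such cells in the ratios was not tested. Over 14485 genes, 10.6% were at least 2-fold higher in the 43 Krt5-positive members and 20.9% lower, with a median of -0.07. As Krtdap chose the members, this is a description, with no test. Genes were ranked with the same limits on UMIs and cells as above.

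Among the genes higher in Krt5-positive members, Them5, a thioesterase, stood at 197 CPM in them and 3.29 CPM in the basal set. Dsg3, the cadherin of lower squamous layers, stood at 292 and 6.95 CPM, and the protease Tmprss11a at 330 and 11.5 CPM. The transcription factors Foxe1 and Osr2 stood at 95.5 and 3.23 CPM and at 206 and 21.9 CPM. The stress keratin Krt6a was at 1223 and 172 CPM. The carrier Slc16a1, a proposed target of lonidamine, stood at 78.7 and 8.62 CPM. In the PBS basal set Krt6a stood at 39.5 CPM and Them5 had no UMI. The papain library gave ratios of the same sign for these genes from 4 members and 1717 basal cells: 8.72 for Them5, 5.32 for Dsg3, 5.94 for Tmprss11a, 5.83 for Foxe1, 2.17 for Osr2, 3.52 for Krt6a and 3.05 for Slc16a1, with 42.0% of genes at least 2-fold higher and 9.69% lower there.

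The keratins of simple epithelia were at least 2-fold lower in 4 of 4 (median -2.71), with Krt8 at 133 CPM in Krt5-positive members and 855 CPM in the basal set and Krt19 at 58.1 and 397 CPM. The secretoglobin Scgb1c1 stood at 206 and 2937 CPM, the carbonyl reductase Cbr2 at 1279 and 9503 CPM, the flavin monooxygenase Fmo6 at 16.9 and 416 CPM, and the water channels Aqp4 and Aqp5 at 65.6 and 575 CPM and at 35.6 and 336 CPM. Complement C3 was at 26.2 and 283 CPM. The tight junction protein Cldn4 stood at 67.4 and 458 CPM. In the papain library Prss23 and Vegfa, also among the lowest under lonidamine, had ratios of 0.01 and 0.49.

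By list, Krt5-positive members had 8 of 10 desmosome genes at least 2-fold higher and 2 lower (median 1.39), 10 of 17 transglutaminase and protease genes higher and 2 lower (2.15), 3 of 4 stress keratins higher (2.15) and 6 of 13 cell cycle genes higher (0.91). They had 8 of 14 interferon-stimulated genes lower (-1.35), 5 of 7 MHC class II genes lower (-1.64), 7 of 13 chemokines and growth factors lower (-1.79) and 9 of 18 genes of the epithelial type 2 response lower with 1 higher (-1.16). Hemidesmosome and integrin genes differed less, with 3 of 11 lower and none higher (-0.33). 

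**Figure D5:**
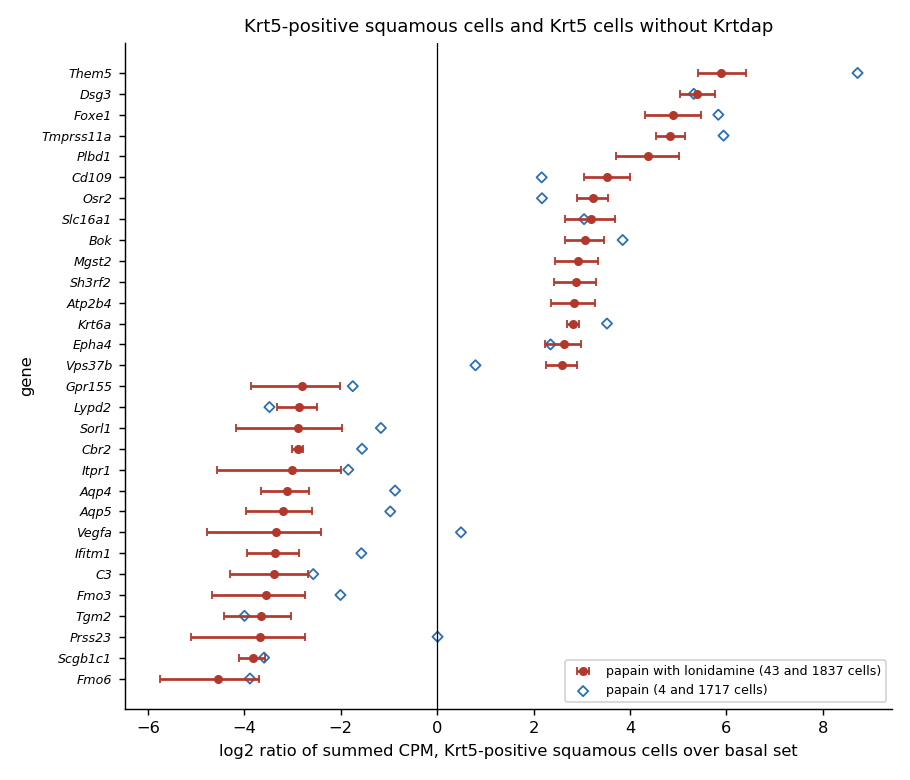
Log2 ratios of summed CPM, Krt5-positive squamous members over the basal set (Krt5 cells without Krtdap), for the 15 highest and 15 lowest genes of the lonidamine library. Red points with lines are the lonidamine library with 95% counting intervals and blue diamonds the papain library where its members had a UMI; the papain ratios of Prss23 (0.01) and Vegfa (0.49) are not below 0.

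Cells with Alox12e, a lipoxygenase gene, were also compared. Against 524 cells with at least 2 Alox12e UMIs and no Krtdap, the 37 Krt5-low lonidamine members had 21 of 21 envelope genes higher (median 7.77) and 10 of 12 desmosome genes higher with 2 lower (3.70). They had 4 of 4 simple keratins lower (-4.26) and 11 of 17 genes of the type 2 response lower with 1 higher (-2.83). In that comparison 10.5% of genes were at least 2-fold higher and 30.6% lower, with a median of -0.39. Krtdap and Sbsn of the rule are among the envelope genes, and Krtdap also chose both sides. The envelope values are therefore a description, with no test.

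Squamous members of the lonidamine and papain libraries were then set against each other, 80 against 7 cells. Of 7305 genes, 856 (11.7%) were at least 2-fold higher under lonidamine and 795 (10.9%) lower, with a median log2 ratio of -0.05. The papain values rest on 137013 UMIs and the lonidamine values on 1372485. The rule for single genes outside the lists left out those with over 20% of their UMIs in 1 cell, which kept 189 of 203 higher and 2 of 245 lower genes. That limit is far stricter on the lower side, since an even spread already gives 14.3% per cell over 7 papain members and 1.25% over 80 lonidamine members, so few genes could be named there. No value against PBS could be formed. Whether the cells differ in state or only in the mix of layers and mucosal and skin-type cells cannot be told apart from these sums, and values within Krt5-low or Krt5-positive cells are given for some keratins, Fabp5, S100a9 and Anxa1 and for no other gene.

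The suprabasal keratins differed by gene and by part. Krt1 stood at 6525 CPM in lonidamine and 839 CPM in papain members (2.95), and Krt10 at 6830 and 963 CPM (2.82). Krt13 stood at 467 and 5686 CPM (-3.61) and Krt4 at 1623 and 6605 CPM (-2.03). Of 5 mucosal suprabasal keratins 3 were at least 2-fold higher under lonidamine and 2 lower (median 1.47), the higher ones being Krt24, Krt76 and Krt78 at 1 to 4 papain UMIs. Of 3 epidermal ones 2 were higher and Krt80 was lower (median 2.82). Within Krt5-low cells Krt1 had a ratio of 2.77, Krt10 2.70, Krt13 -3.91 and Krt4 -2.41, and within Krt5-positive cells Krt1 had 5.92, Krt10 4.64, Krt13 0.42 and Krt4 0.55. The Krt5-positive ratios rest on 1, 2, 8 and 38 papain UMIs of Krt1, Krt10, Krt13 and Krt4. All 4 stress keratins, which rise in wounded or inflamed skin, were at least 2-fold lower under lonidamine (median -1.93). Krt6a stood at 1189 and 5649 CPM, Krt6b at 369 and 3190 CPM, Krt16 at 651 and 1379 CPM and Krt17 at 4152 and 12714 CPM. Krt6a and Krt6b are close paralogs. These papain sums drew on few cells. The 2 Krt5-low papain cells led by Krt13 and Krt4 held 348 and 209 of 774 Krt6a UMIs and 408 and 816 of 1742 Krt17 UMIs. They held 62 and 52 of 189 Krt16 UMIs and 198 and 238 of Krt6b, which had at most 1 UMI in any other papain member. Within Krt5-low cells 3 of these 4 were at least 2-fold lower (median -2.27), beside 17.5% of genes higher and 11.8% lower. Within Krt5-positive cells Krt6a stood at 1223 CPM in lonidamine and 3330 CPM in papain members, Krt16 at 401 and 1211 CPM and Krt17 at 2347 and 2297 CPM, so Krt17 was not lower there. Among the basal sets of these libraries, where 2.24% of genes were higher and 1.18% lower, 1 of the 4 was lower.

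Serpinb3a, a protease inhibitor of squamous cells, was the highest gene under lonidamine by the rule for named genes. It had 495 UMIs in 27 lonidamine members (361 CPM) and 0 in the 7 papain members. That is 16.5-fold against a floor of 3 UMIs, and the interval of its log2 ratio started at 3.74. The next genes also had 0 UMIs under papain. Sema3d, a secreted guidance factor, had 258 UMIs in 57 lonidamine members (8.59-fold against that floor) and the oxidase Aox4 243 UMIs in 26 (8.09-fold). Ndufa4l2 had 205 UMIs in 42 (6.82-fold) and the desmosomal cadherin Dsg1a 149 UMIs in 26 (4.96-fold). Arhgap17, Ss18l2, Pik3c2b, Satb1 and Plekhj1 followed at 2.16-fold to 1.70-fold against that floor. Their log2 intervals started from 0.77 for Arhgap17 to 0.41 for Plekhj1. The 2 genes on the lower side were Luc7l3, at 51.7 CPM in lonidamine and 117 CPM in papain members (-1.21 [-1.97, -0.29]), and Ddost, at 88.9 and 190 CPM (-1.12 [-1.71, -0.42]).

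Other lists split by gene. Of 12 S100 and annexin genes 7 were at least 2-fold lower under lonidamine and none higher (median -1.24), with S100a9 at 124 CPM in lonidamine and 1992 CPM in papain members, and the annexin Anxa1 at 1406 and 5437 CPM (-2.09 within Krt5-low and -1.45 within Krt5-positive cells). S100a9 is also a neutrophil gene, and the 4 neutrophil markers, S100a9 included, summed to 149 CPM in the lonidamine members (205 UMIs, Retnlg at 0) and 2029 CPM in the papain members (278 UMIs, Retnlg and Csf3r at 0). Their part in the S100a9 difference was not tested. Within Krt5-positive cells S100a9 had 9 UMIs in 43 lonidamine members and 0 in 4 papain members. Fabp5 stood at 4906 and 832 CPM (2.55 [2.29, 2.84]), with ratios of 2.50 and 2.61 in Krt5-low and Krt5-positive cells. Envelope genes were 7 higher and 5 lower of 21 (0.22), lipid barrier genes 1 higher and 6 lower of 22, and sterol synthesis genes 4 lower and none higher of 19 (-0.74).

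Genes near the drug's targets had no common direction. Glycolysis genes and lonidamine targets were 3 higher and none lower of 22 (0.05), and none of 18 oxidative phosphorylation genes was 2-fold apart (0.00). The hexokinases stood at 149 and 124 CPM for Hk1 and at 152 and 146 CPM for Hk2 in lonidamine and papain members. The dissociation response list had 7 of 18 higher under lonidamine and 1 lower (0.86), with Fos at 2921 and 956 CPM and Jun at 3418 and 2095 CPM. These are AP-1 genes, and the part of tissue handling in the other ratios was not tested.

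The 7 papain members can be given one by one. Krtdap had 164, 42 and 90 UMIs in the 3 Krt5-low cells and 9, 6, 5 and 9 in the 4 Krt5-positive cells. Krt5 had 0 in each of the first and 41, 52, 60 and 41 in the others. The single cell led by Krt1 and Krt10 carried 108 and 101 UMIs of them, with 0 of Krt13 and 105 of Krt79, a keratin of the hair follicle and sebaceous duct. The other 2 Krt5-low cells carried mucosal keratins, with 132 and 639 UMIs of Krt13 and 350 and 472 of Krt4. Those 2 cells also held 78 and 306 UMIs of Ltf, a serous gland gene, and 38 and 337 of Psca, and 1 was female and 1 male. They held 771 of the 779 Krt13 UMIs of the papain members and 822 of the 905 Krt4 UMIs, while 65.7% of the Krt4 UMIs of the papain library lay outside the members. The 4 Krt5-positive cells had at most 5 UMIs of Krt13 and at most 19 of Krt4. One lonidamine member of 37502 UMIs resembled the mucosal cells, with 402 UMIs of Krt13, 718 of Krt4 and 682 of Ltf, and held 62.7% of the Krt13 UMIs of the lonidamine members.

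The gate was sharp on Krt5-low cells and less so on Krt5-positive ones. The 5 lonidamine members with exactly 3 Krtdap UMIs all had Krt5, at 3216 CPM, with Krt1 at 459 CPM. The 11 lonidamine cells with 2 Krtdap UMIs that otherwise met the rule stood outside with Krt5 at 1746 CPM, found in 10 of them, and Krt1 at 171 CPM. Setting the Krtdap minimum at 1 or 5 UMIs gave 98 or 67 members under lonidamine, 8 or 7 under papain and 0 in each case under PBS.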

How the data were processed

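Single-cell RNA was measured in 3 pooled libraries, 1 per group. The deposited values are raw counts of UMIs per gene and barcode, not normalized, for 55357 genes. They were made with Cell Ranger, version 7.1.0 per the file headers and 2.1.1 with genome build GRCm39 per the submitters' processing notes, and both versions are given because they differ. Doublets were called with Scrublet in scanpy 1.11.5 and kept in the main values, as it marked no member.

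Counts were summed over the members of a library and given as CPM. Log2 ratios had 0.5 UMIs added and used genes with at least 20 UMIs over both sums; "called" means at least 2-fold. Shares have exact (Clopper-Pearson) intervals, CPM exact Poisson intervals and ratios conditional binomial ones, all at 95% and for counting error only, and a count of 0 was given a floor of 3. The ratio was tested on simulated data. Depth was 89164040, 86197965 and 82399462 UMIs in the lonidamine, papain and PBS libraries. Python 3.11.15, numpy 2.4.6, scipy 1.17.1, pandas 2.3.3 and matplotlib 3.10.9 were used.

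Members and gene lists were chosen with earlier results of these data known, and the Krt5 division and the alternatives by Krt5 and by other types' markers after the values were seen. Named genes between libraries were the 10 highest and 10 lowest of those at least 2-fold apart that had at least 50 UMIs, a UMI in at least 10% of members, an interval without 0, at most 20% of UMIs from 1 cell and a CPM of at least 10% of that in the highest comparison set. With no member in PBS, comparisons planned with it gave no value and leading genes were ranked over 2 libraries.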

Additional observations from a re-analysis of the deposited data

Results flagged for a closer look

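The squamous share in female cells was 0.878 percentage points higher under lonidamine than under papain (75 of 7928 cells against 4 of 5853), while in male cells the difference was -0.141 percentage points (0 of 1592 cells against 3 of 2125). The difference between the sexes was not tested, since each library is 1 pool. The male value gives no direction: at a floor of 3 cells, 0 of 1592 is a share of 0.188%, which is above the 0.141% under papain.

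Cells with at least 3 Krtdap UMIs that the rule did not admit made up 0.132% [0.0753, 0.214] of the lonidamine library (16 cells), 0.0373% [0.0102, 0.0956] of the papain library (4 cells) and 0 of the PBS library. Of the 16 cells 13 lacked a second squamous gene and 3 carried Ptprc. Krt5 was present in 15 of them, at 1691 CPM over the 16, and Krt17, a keratin of basal, follicular and stressed cells, stood at 11095 CPM.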

How the results depend on the processing

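No paired analysis was possible because each group is 1 library and has no replicate to leave out. There is no value against PBS, which held no member, or for the library comparison in male or in Krt1/Krt10-dominant members (54 against 1 cell).

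The lonidamine share of 0.658% was 0.850% among cells without Ptprc, 0.946% in female cells and 0 in male cells. It was 0.519% without cells carrying 10 or more UMIs of another type's markers, among the types counted above. The papain share was 0.141% in male cells, and no female papain member was Krt1/Krt10-dominant (0%). The other settings tried on these shares moved them by less than their intervals.

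Counts of genes past 2-fold followed the filter on low counts. For lonidamine over papain, 856 higher and 795 lower became 1459 and 5920 with at least 1 UMI, 169 and 113 with at least 100 UMIs, 320 and 310 in Krt13/Krt4-dominant members and 499 and 522 in Krt5-positive members, while female cells gave 1237 lower. For the Krt5 division, 738 higher and 1144 lower became 1860 and 4540 with at least 1 UMI and 287 and 197 with at least 100 UMIs, and 736 were lower in Krt1/Krt10-dominant cells. Fewer or more genes tested is part of each of these settings.

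A few list medians changed sign, and the cause was not tested. For lonidamine over papain, epidermal suprabasal keratins stood at -0.93 (main value 2.82) and mucosal suprabasal keratins to -0.98 (1.47) in Krt13/Krt4-dominant members. Small proline-rich proteins stood at 0.17 (-2.79) in female cells and chemokines and growth factors to -0.34 (1.27) in Krt5-low members. For the Krt5 division, the alarmin and IL-1 family stood at -0.023 (2.75) without cells carrying other types' markers. No other list median of at least 2-fold in size changed sign. Smaller list medians were not checked for a change of sign. No named gene changed sign. Of 550 recomputed ratios of named genes in the Krt5 division 488 stayed within their interval and 62 moved beyond it. Between the libraries 138 of 144 stayed.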

Other observations

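Several genes of specialised stratified epithelium were found in part of the members. Krt76, a keratin known from the mouse palate, had UMIs in 18 of 37 Krt5-low lonidamine members and stood at 595 CPM there, against 84.3 CPM in Krt5-positive ones, while Krt80 was found in 27 of 37 and stood at 394 against 35.6 CPM. The beta-defensin Defb4 was found in 10 of 37 Krt5-low members and in 11 of all 80. Epiregulin, Ereg, an EGF receptor ligand, stood at 440 CPM in Krt5-low and 3.75 CPM in Krt5-positive members, with 40.1% of the Krt5-low UMIs in 1 cell. Calml3, a calmodulin-like protein of keratinocytes, had a log2 ratio of 2.88 and the sodium channel subunit Scnn1a 1.74, whereas the water and glycerol channel Aqp3 stood at 1721 and 1832 CPM (-0.09) and so had no fold between the 2 ends of the range.

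Against the other kept cells of the lonidamine library, where 8.22% of genes were at least 2-fold higher and 38.9% lower, the members had 15 of 20 ribosomal protein genes higher (median 1.11), 7 of 7 MHC class II genes lower (-4.96) and 13 of 16 interferon-stimulated genes lower (-2.21). Leukocytes, which carry MHC class II genes, are among the other cells, and the rule on Ptprc kept them out of the members.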
